A study of Homo sapiens with 12 samples.

Results

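The comparison described here is that of MiaPaCa2 cells with a knockout of ASAP2 against wild-type MiaPaCa2 cells, with 3 RNA-seq libraries in each group. Its members are genes whose FPKM (fragments mapped to a gene, scaled to its length and to the size of the library) averaged 1 or more over these 6 libraries, which are 11981 of the 22650 gene symbols listed in any of the 12 libraries of the series. The other 6 libraries hold the same comparison in a second pancreatic cancer line, Panc1. They serve here to show where MiaPaCa2 differed, and they enter the estimate of spread behind every test. MiaPaCa2 is labelled as a line of human pancreatic ductal adenocarcinoma. The wild-type group carries no edit by its label, and the knockout group carries the loss of ASAP2 as its only stated change. No treatment or time point is stated for either group. The labels leave out how the knockout was made, whether it is 1 clone or a pool, and whether each library had its own culture. The p-values below therefore measure only the spread between libraries within the 4 groups of the series, which may be technical. In RNA from whole cultures, fewer cells of a type and less RNA per cell cannot be told apart.

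ASAP2 is a GTPase-activating protein of the ASAP family, which switches off Arf proteins, the small GTPases that drive vesicle budding and reshape membranes and actin. Proteins of this family bind membrane lipids and sit at focal adhesions, the sites where integrins couple the matrix to the actin cytoskeleton. MiaPaCa2 is a long-established line from a pancreatic carcinoma and has a mixed epithelial and mesenchymal look. The interferon-induced genes of the comparison are set aside where stated, so that the other functions and gene families can be described.

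The libraries of a group resembled each other more than those of the other group, with r of log2(FPKM + 1) across genes between 0.9916 and 0.9961 within groups and between 0.9769 and 0.9862 across them. A library listed 17958 to 18212 genes. The deposited files hold no counts, so the read depth is unknown. ASAP2 mRNA stood at 13.2, 13.6 and 13.8 FPKM in wild-type and 12, 13.8 and 11.3 FPKM in knockout libraries. The groups overlapped, and the log2 change of -0.13 (SE 0.07) did not pass (limma, adjusted p = 0.197). Without knockout replicate 2 it passed, at an adjusted p of 0.0315. The labels of the knockout libraries are therefore not checked by the level of ASAP2 mRNA.

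The cell type on the label was compared with marker genes. Of 22 markers of pancreatic duct and epithelium, 5 reached a mean of 1 FPKM (KRT8, KRT18, KRT19, MUC1 and SOX9), 14 had a mean below 0.1 FPKM, and EPCAM and CFTR were listed in none of the 6 libraries. A gene missing from a library's deposited table was taken as 0. CDH1, which encodes E-cadherin, was at 0.02 FPKM or less in every library. Keratins, SOX9 and a low level of the surface mucin MUC1 (3.08 to 3.71 FPKM) thus stood beside a near absence of EPCAM, CFTR and CDH1. The summed level of the 22 markers was 1335, 1302 and 1284 FPKM in wild-type and 953, 938 and 969 FPKM in knockout libraries, a difference carried by the keratins, while SOX9, a transcription factor of duct progenitors, was at 67.3, 61.1 and 55.8 FPKM against 62.9, 64.3 and 65.7 FPKM. Of 31 markers of blood and myeloid cells, 24 had a mean below 0.1 FPKM or were not listed, and PTPRC, which encodes the pan-leukocyte antigen CD45, was listed in none of the 6. The same held for endothelial CDH5 and acinar PRSS1.

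In all, 2260 genes rose and 2108 fell in the knockout libraries at an adjusted p below 0.05 (limma, Benjamini-Hochberg adjustment over 13340 genes), which are 18.9% and 17.6% of the 11981 genes. Both directions together make 4368 genes, or 36.5%. Most of these changes were small: 3730 of the called genes, 85.4%, moved by less than 0.5 on the log2(FPKM + 1) scale, and the median size of a called change was 0.28. At least 2-fold changes on that scale were found for 51 genes that rose (0.426%) and 47 that fell (0.392%). Outside the list of interferon-induced genes the 2-fold calls were 51 higher (0.429% of 11884) and 24 lower (0.202%), so 23 of the 47 large decreases belonged to that list. The list was written by hand and need not be complete, so genes outside it, including those named below, may also be induced by interferon. The 3 wild-type and 3 knockout values did not overlap for 5481 genes (45.7%), and the median change of all 11981 genes was 0.02. Most genes named below were picked to have no such overlap, so the separation of their groups is part of the choice. With a pseudocount of 0.1 the 2-fold counts were 104 and 75, and with a filter of 5 FPKM they were 30 and 29.

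The largest increases were spread over unrelated functions, and several began from a level near absence. PRUNE2, a protein of the BCH-domain family, stood at 0.28, 0.531 and 0.558 FPKM in wild-type and 8.27, 9.55 and 8.13 FPKM in knockout libraries. No wild-type library reached 1 FPKM and no knockout library was below 8, which makes a ratio of means of 19 (log2 change 2.73, SE 0.08, adjusted p = 6.4e-10). PRND, which encodes the prion-like membrane protein doppel, stood at 0.509, 0.677 and 0.561 FPKM in wild-type and 5.25, 5.79 and 4.25 FPKM in knockout libraries, again with a gap between the groups. LINC01444, a long noncoding RNA of chromosome 18, stood at 1.32, 1.36 and 0.698 FPKM in wild-type and 10.2, 8.94 and 8.4 FPKM in knockout libraries. The gene LINC01443, whose annotated span on chromosome 18 (14946266 to 14974214 in GRCh37) contains LINC01444, was at 0.266, 0.090 and 0.128 FPKM in wild-type and 2.45, 3.65 and 2.82 FPKM in knockout libraries. Both rose together, and since the use of strand in the authors' counting is not stated, reads of overlapping genes cannot be assigned to one of them here.

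Surface and adhesion genes were among the large increases. PCDH1, a protocadherin of epithelial cells, stood at 1.38, 2.22 and 2.12 FPKM in wild-type and 14.1, 20.1 and 12.8 FPKM in knockout libraries. The groups lay far apart, with a ratio of means of 8.21 (log2 change 2.51, SE 0.15, adjusted p = 2.2e-07). It was the only one called of 23 protocadherin genes tested. The other 22, all of the gamma cluster, whose genes share exons, had changes of 0.04 to 0.06 and did not pass. POPDC3, a cAMP-binding Popeye-domain membrane protein, rose from 3.84 ± 0.526 (mean ± SD, n = 3) to 18.3 ± 2.01 FPKM. CD82, a tetraspanin known as a suppressor of metastasis, stood at 6.9, 6.84 and 6.23 FPKM in wild-type and 22, 19.2 and 25 FPKM in knockout libraries. Every knockout value of CD82 was above every wild-type value, by 1.58 on the log2 scale (SE 0.08, adjusted p = 6.6e-08). The secreted cartilage protein MIA rose from 1.17 ± 0.386 to 7.23 ± 1.91 FPKM.

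Some single enzymes were also among the 15 largest increases. STS, the steroid sulfatase that releases oestrone and related steroids from their sulfates, stood at 2.03, 1.54 and 1.78 FPKM in wild-type and 9.58, 13.6 and 9.05 FPKM in knockout libraries. AKR1C1, an aldo-keto reductase that inactivates progesterone, stood at 17.2, 12.7 and 11 FPKM in wild-type and 53.9, 68.7 and 67.1 FPKM in knockout libraries. For each of them the lowest knockout value was several times the highest wild-type value. The changes were 2.06 (SE 0.12) and 2.15 (SE 0.21). AKR1C1 belongs to a cluster of near-identical genes whose other members AKR1C2 and AKR1C3 did not reach a mean of 1 FPKM, and no label says how the authors' counting divided reads among them. NEDD4L, a ubiquitin ligase that controls sodium channels and SMAD proteins, rose from 8.73 ± 0.591 to 31.9 ± 2.94 FPKM (log2 change 1.75, SE 0.10). TMX4, a thioredoxin-like protein of the endoplasmic reticulum membrane, rose from 7.35 ± 2.38 to 24.3 ± 6.1 FPKM.

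A pair of genes best known from blood cells stood among the increases. LYZ, the secreted lysozyme of macrophages, stood at 38.2, 22.9 and 24.9 FPKM in wild-type and 112, 135 and 118 FPKM in knockout libraries. LAPTM5, a lysosomal membrane protein of leukocytes, stood at 1.53, 2.34 and 2.21 FPKM in wild-type and 16.9, 16.4 and 17.4 FPKM in knockout libraries. The groups did not overlap for either, with log2 changes of 2.08 (SE 0.24) and 2.57 (SE 0.11). The other blood and myeloid markers did not follow them: the sum over the list without LYZ and LAPTM5 was 27.5, 29.6 and 28.2 FPKM in wild-type and 19.9, 20.7 and 21.0 FPKM in knockout libraries, PTPRC was not listed, and CD68, a lysosomal protein of macrophages, fell from 26.7 ± 1.5 to 18.7 ± 0.531 FPKM. The sum over all 31 markers was 54.8 to 67.2 FPKM in wild-type and 148.6 to 172.5 FPKM in knockout libraries. PAX8-AS1, an RNA on the strand opposite PAX8, rose from 4.41 ± 0.32 to 15.8 ± 2.17 FPKM, and PAX8, a transcription factor of kidney and thyroid development, from 2.3 ± 0.0851 to 3.77 ± 0.163 FPKM. Reads of this overlapping pair cannot be told apart without strand.

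**Figure D1:**
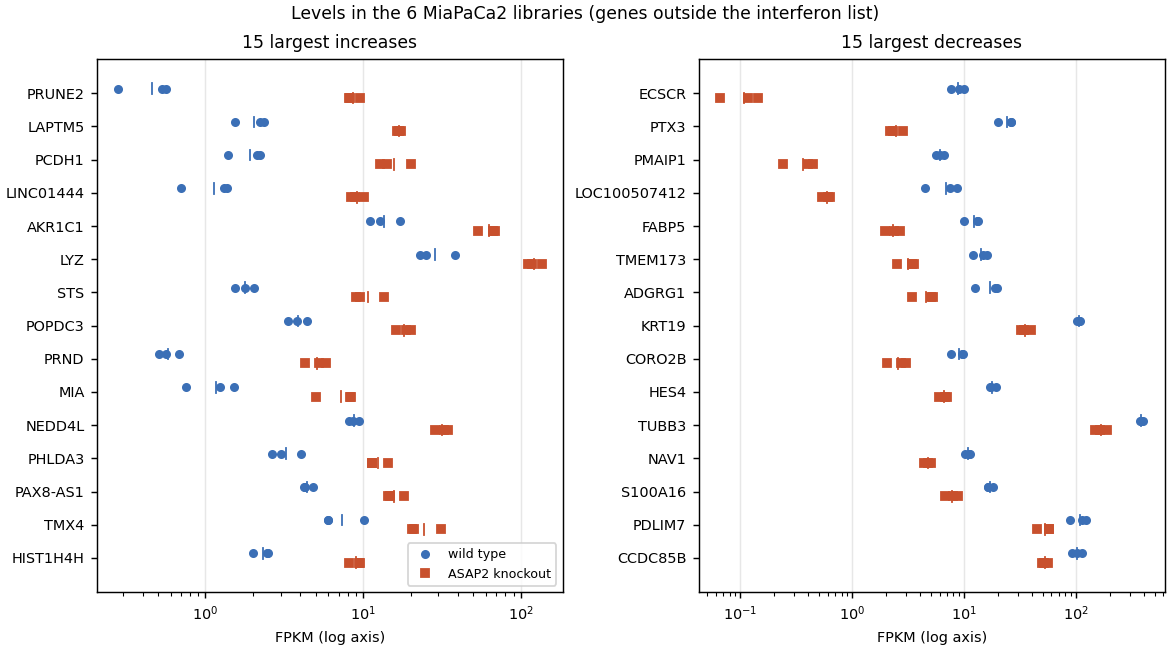
FPKM (log axis) of the 15 genes with the largest increase and the 15 with the largest decrease outside the interferon list, in the 3 wild-type (blue circles) and 3 knockout (red squares) MiaPaCa2 libraries; short vertical lines are group means. Only genes without overlap between the groups were picked. PRUNE2 and PRND are below 1 FPKM in all wild-type libraries, and ECSCR, PMAIP1 and LOC100507412 are below 1 FPKM in all knockout libraries.

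Outside the interferon list ECSCR fell most. It encodes a chemotaxis regulator on the endothelial surface and stood at 7.53, 8.89 and 9.9 FPKM in wild-type and 0.117, 0.066 and 0.143 FPKM in knockout libraries. Its immediate neighbour on chromosome 5 is TMEM173, which encodes STING, the adaptor that relays cytosolic DNA sensing to interferon production. TMEM173 stood at 12.1, 15.8 and 14.8 FPKM in wild-type and 3.41, 2.49 and 3.56 FPKM in knockout libraries. ECSCR spans 138784245 to 138842328 and TMEM173 spans 138855118 to 138862520 of chromosome 5 in GRCh37. Both groups were separated for each gene, with log2 changes of -3.13 (SE 0.09, adjusted p = 6.4e-10) and -1.88 (SE 0.11, adjusted p = 1.6e-07). Other endothelial markers did not fall to this extent: the changes were -0.31 for ENG, -0.31 for EGFL7 and 0.33 for ROBO4, and 11 of the 18 markers had a mean below 0.1 FPKM or were not listed. The call of ENG was lost without wild-type replicate 2 (adjusted p = 0.0575), and that of ROBO4 without knockout replicate 2 (0.0512) or wild-type replicate 3 (0.0508).

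PTX3, a secreted pattern-recognition pentraxin, stood at 20.1, 26.2 and 26.2 FPKM in wild-type and 2.17, 2.3 and 2.85 FPKM in knockout libraries. PMAIP1, which encodes NOXA, a BH3-only inducer of apoptosis, stood at 5.58, 6.07 and 6.56 FPKM in wild-type and 0.402, 0.242 and 0.447 FPKM in knockout libraries. FABP5, an intracellular carrier of fatty acids, stood at 9.99, 13.3 and 12.9 FPKM in wild-type and 2.67, 2.34 and 1.94 FPKM in knockout libraries. In each of these genes the highest knockout value was under the lowest wild-type value by several fold, with ratios of the means, wild type over knockout, of 9.9, 16.7 and 5.21. LOC100507412, an uncharacterized locus, was at 4.43, 8.67 and 7.44 FPKM in wild-type and 0.628, 0.53 and 0.607 FPKM in knockout libraries. PTX3 lies inside VEPH1, a gene of the other strand, so reads of the pair cannot be told apart here.

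Several of the remaining 15 largest decreases were in genes of the cytoskeleton. KRT19, a keratin of duct epithelium, stood at 102, 109 and 105 FPKM in wild-type and 31.8, 39.2 and 34 FPKM in knockout libraries. TUBB3, the beta-tubulin typical of neurons and of many carcinomas, stood at 373, 398 and 375 FPKM in wild-type and 164, 146 and 186 FPKM in knockout libraries. The groups of both genes were separated by more than the spread of either, with log2 changes of -1.57 (SE 0.07) and -1.21 (SE 0.07). CORO2B, a coronin that binds actin, fell from 8.98 ± 1.25 to 2.57 ± 0.50 FPKM, NAV1, a microtubule-binding protein, from 10.8 ± 0.50 to 4.7 ± 0.347 FPKM, and PDLIM7, a PDZ-LIM protein of actin bundles, from 108 ± 17.6 to 52.6 ± 7.27 FPKM. TUBB3 lies directly behind MC1R on the same strand, and reads of tubulin genes may be shared between near-identical members. ADGRG1, an adhesion G protein-coupled receptor that binds collagen III, fell from 16.9 ± 3.87 to 4.56 ± 0.994 FPKM. HES4, a transcriptional repressor of the hairy family, fell from 17.8 ± 1.17 to 6.55 ± 0.504 FPKM and lies next to the interferon-induced ISG15 on chromosome 1. S100A16, a calcium-binding protein, and CCDC85B, a small coiled-coil protein, also fell, with changes of -1.02 and -0.95.

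Gene lists and families were described by how many of their tested members were called, to be read against 18.9% higher and 17.6% lower among all genes, and by their median beside 0.02. The interferon-induced genes, for reference, had 58 of 97 lower and 10 higher, with a median of -0.27. The 10 that rose became 6 without wild-type replicate 2 or 3.

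**Figure D2:**
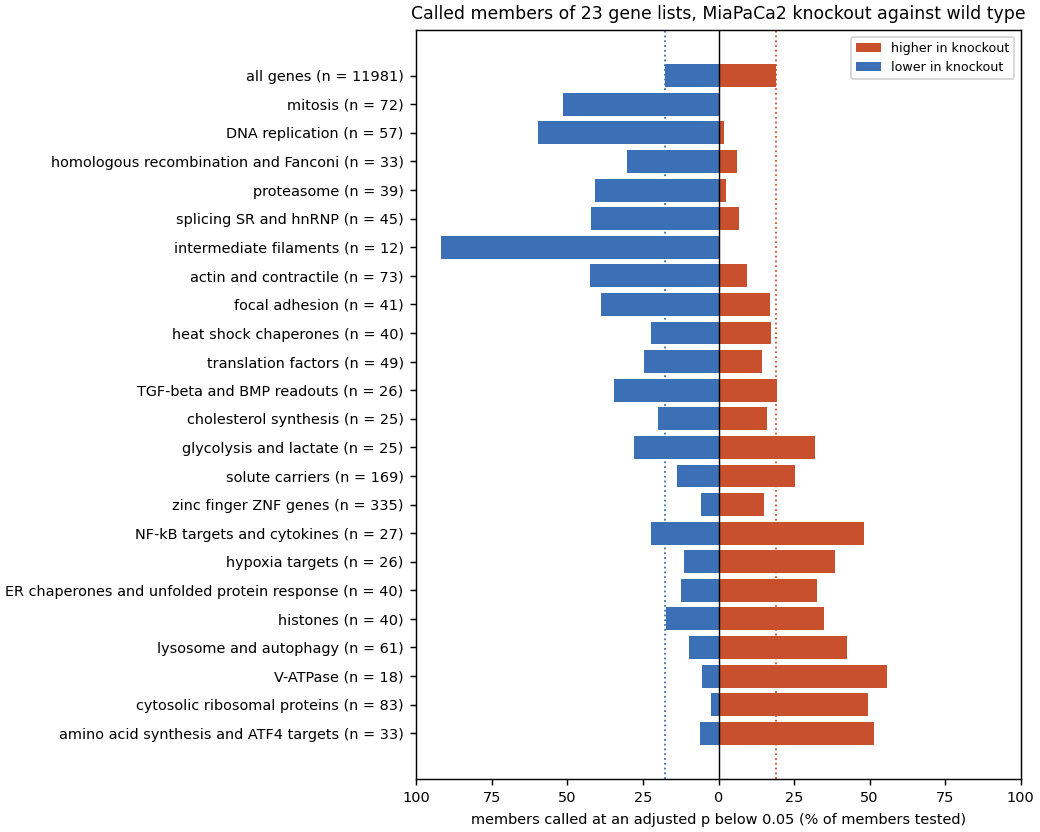
Percent of the tested members of 23 gene lists called higher (red, to the right) or lower (blue, to the left) in MiaPaCa2 knockout libraries at an adjusted p below 0.05, with the shares of all genes at the top and as dotted lines. Intermediate filaments (91.7% lower) and DNA replication (59.6% lower) stand at one end, and V-ATPase genes (55.6% higher) at the other.

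Genes of cell division were lower. Of 72 genes of mitosis (spindle, kinetochore and mitotic kinases) 37 fell and 0 rose, with a median of -0.22 (limma). At an unadjusted p below 0.05 the counts were 46 lower and 0 higher, and no member exceeded an increase of 0.08. KIF4A, a motor that shortens the spindle midzone, stood at 26.9, 29 and 29.1 FPKM in wild-type and 17.5, 16.4 and 17.5 FPKM in knockout libraries. BUB1, a kinase of the spindle checkpoint, stood at 48.2, 49.97 and 52.9 FPKM in wild-type and 35.1, 36.5 and 34.6 FPKM in knockout libraries. CENPA, the histone that marks the centromere, stood at 23.6, 25.2 and 22.8 FPKM in wild-type and 17.3, 15.4 and 18 FPKM in knockout libraries. The groups were separated for all of these, and the changes were -0.69 (SE 0.04), -0.50 (SE 0.05) and -0.48 (SE 0.07). MKI67, the proliferation marker Ki-67, fell by 0.34, from 59.1 ± 3.1 to 46.4 ± 5.12 FPKM (adjusted p = 0.011). KIF20B, a kinesin of the midbody, changed by -0.54, a call lost under 12 alternatives, with an adjusted p of up to 0.174 without knockout replicate 3. Without wild-type replicate 3 the number of mitosis genes that fell was 21 instead of 37.

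Of 57 genes of DNA replication, 34 fell and 1 rose, with a median of -0.26 (-0.16 without knockout replicate 2). RRM2, the regulated subunit of ribonucleotide reductase, stood at 115, 126 and 131 FPKM in wild-type and 69, 51.2 and 73.6 FPKM in knockout libraries. ORC1 and CDT1, which load the replicative helicase onto origins, fell too, with changes of -0.52 and -0.50. The exception was GINS4, a subunit of that helicase, at 32, 33.3 and 31.7 FPKM in wild-type and 61.3, 54.8 and 62.1 FPKM in knockout libraries; all knockout values of GINS4 were above all wild-type values, by 0.86 (SE 0.07, adjusted p = 1.9e-06). Without wild-type replicate 3 the number that fell was 22, and without knockout replicate 2 the number that rose was 3. RRM2 and CENPA lie in the part of chromosome 2 described below, but outside it and the low part of chromosome 14 the lists still had 33 of 56 replication and 36 of 71 mitosis genes lower. In the repair of DNA by homologous recombination and the Fanconi pathway, 10 of 33 genes fell and 2 rose (0 without wild-type replicate 2), led by FANCF, an adaptor of the Fanconi core complex, with a change of -0.75.

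Among 13 CDK inhibitors and G1 regulators, 5 rose and 4 fell. CDKN1A, which encodes the CDK inhibitor p21, stood at 4.61, 4.82 and 4.85 FPKM in wild-type and 8.91, 11.2 and 7.64 FPKM in knockout libraries. CDKN1C, which encodes p57, stood at 3.98, 3.47 and 3.92 FPKM in wild-type and 7.44, 7.98 and 8.15 FPKM in knockout libraries. CDKN2C, which encodes p18, went the other way, at 18.3, 21.4 and 19.9 FPKM in wild-type and 12.5, 9.84 and 11.2 FPKM in knockout libraries. The 3 inhibitors thus moved in different directions with no overlap in any of them. The 5 increases became 3 without knockout replicate 1 or wild-type replicate 2 or 3. Of 40 histone genes, 14 rose and 7 fell, with a median of 0.23 (0.11 without knockout replicate 1, and 0.06 with a filter of 5 FPKM, which leaves fewer members). The largest increases were in genes of the replication-dependent clusters, HIST1H4H (from 2.32 ± 0.269 to 9.0 ± 0.777 FPKM), HIST1H1C (34 ± 2.27 to 92.6 ± 27.4), HIST1H2BK (63.9 ± 5.96 to 141 ± 35.1) and HIST2H2BE (3.12 ± 0.365 to 7.7 ± 0.296). HIST1H1C varied widely among knockout libraries, at 110.9, 61.1 and 105.8 FPKM. Reads may be shared between these near-identical genes.

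Promoters of mitotic genes are known to carry CCAAT boxes and, near the start, a cell cycle homology region, and promoters of amino acid stress genes carry C/EBP-ATF sites. The 250 bases before the start were read from RefSeq (GRCh38.p14). They are printed for 3 named genes with a single listed start, a pair of mitosis genes that fell and CHAC1, which rose. These were picked among genes that hold the motifs marked below, so the presence of the motifs is part of the choice. A CCAAT box and a cell cycle homology region were found together in 11 of the 28 such mitosis genes that fell (39.3%). The same held for 11 of the 22 that were not called. Capitals mark CCAAT boxes (CCAAT, or ATTGG on the other strand) and cell cycle homology regions (TTTGAA) in the mitosis genes. In CHAC1 they mark a C/EBP-ATF site (TGATGNAA, read from the other strand).
KIF4A, chrX:70289854-70290103 (strand +): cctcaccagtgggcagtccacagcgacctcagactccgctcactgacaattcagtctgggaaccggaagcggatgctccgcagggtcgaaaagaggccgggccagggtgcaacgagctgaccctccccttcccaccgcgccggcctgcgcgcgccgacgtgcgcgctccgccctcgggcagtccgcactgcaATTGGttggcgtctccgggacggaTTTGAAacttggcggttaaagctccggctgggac
CENPA, chr2:26785806-26786055 (strand +): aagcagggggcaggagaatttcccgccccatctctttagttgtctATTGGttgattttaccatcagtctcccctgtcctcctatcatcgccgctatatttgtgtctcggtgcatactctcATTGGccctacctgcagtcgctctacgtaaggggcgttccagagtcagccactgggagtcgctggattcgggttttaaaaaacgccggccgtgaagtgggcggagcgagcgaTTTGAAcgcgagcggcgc
CHAC1, chr15:40953221-40953470 (strand +): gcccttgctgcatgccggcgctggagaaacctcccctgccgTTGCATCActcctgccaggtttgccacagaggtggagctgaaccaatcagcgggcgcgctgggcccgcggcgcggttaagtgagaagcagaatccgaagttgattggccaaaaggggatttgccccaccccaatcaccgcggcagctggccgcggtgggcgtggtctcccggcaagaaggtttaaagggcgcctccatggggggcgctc
Searched on both strands, CCAAT was found in 21 of the 28 mitosis genes that fell and had a single start (75.0%), against 36.8% of 6514 such genes expressed in MiaPaCa2 and 33.4% of all 22114. TTTGAA was found in 13 of the 28 (46.4%), against 7.8% and 14% in the same order. The mitosis genes that were not called held them in 18 of 22 (81.8%) and 13 of 22 (59.1%), so the motifs did not separate the genes that fell from the other genes of the list. Of 21 replication genes that fell, 9 held CCAAT and 0 held TTTGAA. TGATGNAA was found in 1 of 6 genes of amino acid stress that rose and in 0.982% of expressed genes. These are matches of short strings, and binding was not measured.

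**Figure D3:**
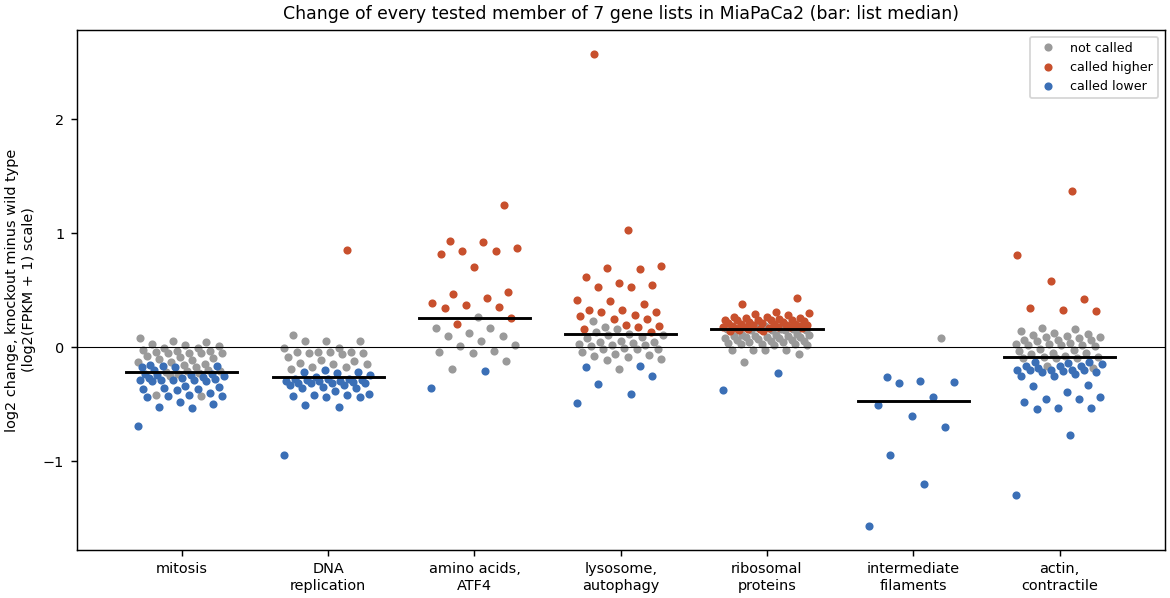
Log2 change (knockout minus wild type, log2(FPKM + 1) scale) of every tested member of 7 gene lists in MiaPaCa2; red and blue points are genes called higher and lower, grey points were not called, and black bars are list medians. Mitosis (median -0.22), DNA replication (-0.26) and intermediate filaments (-0.47) lie below 0, while amino acid and ATF4 genes (0.26) and ribosomal proteins (0.16) lie above.

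PHLDA3, GADD45A, SESN2, TNFRSF10D and PLK3 are given as single genes, with no count over a list. PHLDA3, a repressor of Akt at the membrane, stood at 4.04, 3.02 and 2.65 FPKM in wild-type and 11.3, 14.4 and 11.4 FPKM in knockout libraries. GADD45A, a stress protein that binds PCNA and p21, stood at 18.9, 20.4 and 21.7 FPKM in wild-type and 37.8, 44.6 and 38.5 FPKM in knockout libraries. Both had all knockout values above all wild-type values, by 1.66 (SE 0.11, adjusted p = 7.3e-07) and 0.95 (SE 0.12). SESN2, a sestrin that restrains mTORC1, and TNFRSF10D, a decoy receptor for the death ligand TRAIL, rose by 0.70 and 0.61. PLK3, a stress kinase, fell by 0.70. In the BCL2 family of cell death regulators, to which PMAIP1 belongs, 3 of 15 rose and 5 fell, and the 5 became 2 without wild-type replicate 2 and the 3 became 1 without wild-type replicate 3. PMAIP1 was the only member that changed by more than 1, and BOK, a BAX-like effector, followed with -0.52.

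The amino acid stress genes rose in the same libraries. Of 33 genes of amino acid synthesis and of the targets of ATF4, the transcription factor that answers amino acid shortage and endoplasmic reticulum stress, 17 rose and 2 fell, with a median of 0.26. DDIT4, an inhibitor of mTORC1, stood at 32.9, 23.2 and 21.6 FPKM in wild-type and 57, 77 and 53.6 FPKM in knockout libraries. CHAC1, which degrades glutathione, stood at 7.06, 5.86 and 5.85 FPKM in wild-type and 12.9, 12.2 and 13.1 FPKM in knockout libraries. CEBPB, a bZIP partner of ATF4, stood at 17.8, 17 and 16.7 FPKM in wild-type and 28.8, 35.6 and 32.1 FPKM in knockout libraries. All knockout values lay above all wild-type values in these genes, with changes of 1.25 (SE 0.15), 0.93 (SE 0.08) and 0.87 (SE 0.09). The further stress genes TRIB3, a pseudokinase, and DDIT3, which encodes CHOP, rose by 0.84 and 0.82, and ATF4 itself by 0.47. NUPR1, a small stress protein, rose by 0.85, but this call was lost without wild-type replicate 2 (adjusted p = 0.0517) or 3 (0.0581). SLC7A11, the cystine importer, rose by 0.49. In the wider unfolded protein response, 13 of 40 genes rose and 5 fell, among them HERPUD1, which helps degrade misfolded proteins (0.62), and the sensor ERN1, also called IRE1 (0.53).

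Metabolic lists were mixed. Of 25 glycolysis genes 8 rose and 7 fell, and both counts depended on single libraries (as few as 5 and 4 with 1 library left out). The glucose transporter SLC2A3 stood at 0.618, 0.74 and 0.923 FPKM in wild-type and 3.35, 2.36 and 3.47 FPKM in knockout libraries, and the lactate exporter SLC16A3 at 45.3, 49.9 and 49.1 FPKM in wild-type and 28.7, 24 and 32 FPKM in knockout libraries. The groups of both were separated, in opposite directions, by 1.20 (SE 0.10) and -0.76 (SE 0.08). Of 26 hypoxia targets 10 rose and 3 fell, with a median of 0.02; the 10 included DDIT4 and SLC2A3, the angiogenic factor VEGFA (from 10.4 ± 1.12 to 20.7 ± 2.65 FPKM), ADM, a vasodilator peptide (0.92), and NDRG1, a stress protein (0.82). Without knockout replicate 2, 5 of them fell instead of 3. Cholesterol synthesis had 4 of 25 genes higher and 5 lower, and its 4 increases became 0 without knockout replicate 2, wild-type replicate 2 or wild-type replicate 3 and 11 without wild-type replicate 1. Of 37 genes of the NRF2 response to oxidants, 5 rose and 10 fell, with the 10 down to 5 without wild-type replicate 3 and the 5 down to 3 without wild-type replicate 2 or knockout replicate 1. AKR1C1, which the list contains, was its only change above 1.

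Organelles that break down and recycle cell contents tended upwards. Of 61 genes of lysosome and autophagy, 26 rose and 6 fell, with a median of 0.12. CTSH, a lysosomal protease, stood at 14.5, 10.9 and 10.5 FPKM in wild-type and 27, 23.1 and 25.5 FPKM in knockout libraries. PSAP, the precursor of the saposins that activate lipid hydrolases, stood at 134, 119 and 114 FPKM in wild-type and 189, 217 and 187 FPKM in knockout libraries. GABARAPL1, an autophagosome membrane protein, stood at 3.07, 2.02 and 2.67 FPKM in wild-type and 4.84, 5.58 and 4.14 FPKM in knockout libraries. These groups did not overlap, and the changes were 1.03 (SE 0.09), 0.69 (SE 0.08) and 0.71 (SE 0.11). LAPTM5 belongs to this list as well. SQSTM1, the autophagy receptor p62, rose from 133 ± 10.9 to 196 ± 21.5 FPKM. Of 18 subunits of the V-ATPase, the pump that acidifies lysosomes, 10 rose and 1 fell (median 0.17), but the 10 became 5 without wild-type replicate 2 and 6 without wild-type replicate 3. Of 43 Rab GTPases, which direct vesicle traffic, 14 rose and 7 fell, with the 14 down to 7 without wild-type replicate 2. RAB29 rose by 0.84, and RAB1A, which acts between endoplasmic reticulum and Golgi and lies in the low part of chromosome 2, fell by 0.65.

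Lists of protein synthesis differed among themselves. Of 83 cytosolic ribosomal protein genes 41 rose and 2 fell, with a median of 0.16 and no change above 0.43. RPSA, a protein of the small subunit, stood at 409, 391 and 393 FPKM in wild-type and 512, 453 and 522 FPKM in knockout libraries. RPS27A, which encodes a ribosomal protein fused to ubiquitin, stood at 392, 365 and 387 FPKM in wild-type and 301, 279 and 300.0 FPKM in knockout libraries. The groups were separated for both, in opposite directions (0.31 and -0.38). RPS27A and RPS7, the other ribosomal gene that fell, lie in the low part of chromosome 2, and reads of ribosomal genes may be shared with their many pseudogenes. Of 49 translation factors 7 rose and 12 fell (median -0.04), with the 7 down to 4 without wild-type replicate 2. Outside the low parts of chromosomes 2 and 14, 8 of 45 translation factors fell. Of 53 genes of ribosome biogenesis 1 rose and 11 fell (median -0.05), with 8 higher instead of 1 and a median of 0.01 without knockout replicate 2, and 3 higher without knockout replicate 3. Of 39 proteasome genes 1 rose and 16 fell, with a median of -0.10, led by the ATPase subunit gene PSMC1 (-0.39). The 16 became 8 without wild-type replicate 2 and 9 without wild-type replicate 3, and the median was -0.06 without knockout replicate 2. Of 45 splicing factors of the SR and hnRNP families 3 rose and 19 fell, with a median of -0.13 (-0.08 without knockout replicate 2), and the largest decreases were SRSF8 (-0.55) and SRSF7 (-0.38). Mitochondrial ribosomal proteins had 5 of 78 higher and 11 of 78 lower, the 11 down to 4 without wild-type replicate 3 and the 5 down to 3 without wild-type replicate 2. The heat shock chaperones had 7 of 40 higher and 9 lower, with the 9 down to 5 without wild-type replicate 3 and the 7 down to 4 without knockout replicate 1. Outside the low parts of chromosomes 2 and 14, 5 of 36 of these chaperones fell. CCT4, a subunit of the chaperonin that folds actin and tubulin, fell by 0.66 and lies in the low part of chromosome 2.

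ASAP2 acts on Arf proteins and at focal adhesions, and these groups are described for that reason. Of 44 Arf GTPases and their regulators 13 rose and 5 fell, with a median of 0.04, and none changed by more than 1. ACAP3, an Arf GTPase-activating protein of a related family, stood at 7.88, 10.5 and 9.36 FPKM in wild-type and 5.37, 5.81 and 6.11 FPKM in knockout libraries. The groups were separated, with a change of -0.59 (SE 0.08). The closest relative of ASAP2, ASAP1, fell by 0.26 (SE 0.05, adjusted p = 0.00209), from a mean of 20.9 ± 1.53 to 17.2 ± 0.407 FPKM. ARF6, which acts at the plasma membrane, was at 83, 85.2 and 84.8 FPKM in wild-type and 73.3, 84.3 and 76 FPKM in knockout libraries, and its groups overlapped.

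Focal adhesion and actin genes were lower more often than higher. Of 41 focal adhesion genes 7 rose and 16 fell (median -0.07), led by PDLIM7. TNS2, a tensin that links integrins to actin, fell by 0.63. FERMT1, the integrin activator kindlin-1, and ACTN1, an actin cross-linker, changed by -0.48 and -0.44. FHL1, a LIM protein, rose from 1.75 ± 0.229 to 3.95 ± 0.545 FPKM. The 7 that rose became 4 without knockout replicate 3. Of 9 integrins 2 rose and 1 fell: ITGAV, the alpha subunit of vitronectin receptors, rose from 2.95 ± 0.349 to 5.56 ± 0.714 FPKM, and ITGA3, that of a laminin receptor, fell from 116 ± 4.47 to 79.4 ± 5.19 FPKM. ITGAE also rose, by 0.26, a call lost without knockout replicate 1 (adjusted p = 0.0652), without knockout replicate 3 (0.0734) and without wild-type replicate 1 (0.0882).

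Of 73 genes of actin and its contractile partners 7 rose and 31 fell, with a median of -0.09. ACTG2, the actin of smooth muscle of the gut, stood at 2.44, 1.77 and 1.61 FPKM in wild-type and 0.14, 0.249 and 0.182 FPKM in knockout libraries. FSCN1, fascin, which bundles actin in filopodia, stood at 25, 29.9 and 28.2 FPKM in wild-type and 16.2, 13.6 and 18.1 FPKM in knockout libraries. RHOU, an atypical small GTPase of filopodia, stood at 1.07, 0.916 and 1.17 FPKM in wild-type and 4.18, 5.13 and 3.65 FPKM in knockout libraries. The groups did not overlap: the changes were -1.29 (SE 0.09) for ACTG2, -0.77 (SE 0.10) for FSCN1 and 1.37 (SE 0.10) for RHOU. CAPG, which caps actin filaments, rose from 102 ± 8.57 to 179 ± 8.77 FPKM, and PLS3, a plastin, by 0.58. ACTG2 lies in the low part of chromosome 2, where 5 of the 73 genes on either low stretch were found; outside both stretches 27 of 68 fell. Of 14 tubulins 2 rose and 5 fell, and without wild-type replicate 3 these were 0 and 3.

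Intermediate filaments showed the highest share of decreases among the lists drawn in the bar plot of called members, 11 of 12, with a median of -0.47 (limma). None rose, and 0 did so at an unadjusted p below 0.05 either. KRT13 and KRT15, keratins of stratified epithelia, stood at 1.84, 2.0 and 2.18 FPKM in wild-type and 0.467, 0.201 and 0.271 FPKM in knockout libraries and at 3.17, 3.58 and 3.56 FPKM in wild-type and 1.64, 1.05 and 1.27 FPKM in knockout libraries respectively. LMNA, which encodes the nuclear lamins A and C, stood at 243, 268 and 265 FPKM in wild-type and 160.3, 145 and 172 FPKM in knockout libraries. KRT8 and KRT18, the keratin pair of simple epithelia, stood at 656, 655 and 635 FPKM in wild-type and 461, 446 and 465 FPKM in knockout libraries and at 503, 472 and 484 FPKM in wild-type and 392, 384 and 399 FPKM in knockout libraries. For all 5 genes every knockout value was below every wild-type value, with changes of -1.20, -0.94, -0.70, -0.50 and -0.31 in that order. VIM, vimentin of mesenchymal cells, fell as well, by 0.29 (SE 0.04), from a mean of 2442 ± 37.5 to 1993 ± 78.3 FPKM. KRT13, KRT15 and KRT19 are neighbours on chromosome 17, and KRT8 and KRT18 on chromosome 12, so the genes of the list are not spread evenly over the genome, and reads of KRT8 and KRT18 may be shared with their pseudogenes. With a filter of 5 FPKM, which leaves fewer members, the median was -0.37.

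Genes of cytokines and of NF-kB, the transcription factor of inflammation, were higher more often than lower. Of 27 tested 13 rose and 6 fell, with a median of 0.15 (0.09 without knockout replicate 3), while PTX3 went strongly down. CSF3, the growth factor of granulocytes, stood at 0.235, 0.356 and 0.368 FPKM in wild-type and 2.14, 2.78 and 1.6 FPKM in knockout libraries. CSF1, the growth factor of macrophages, stood at 17.5, 12.2 and 12.1 FPKM in wild-type and 27.2, 35.7 and 28.5 FPKM in knockout libraries. TRAF1, an adaptor of TNF receptors, stood at 1.66, 1.24 and 1.42 FPKM in wild-type and 2.79, 3.55 and 2.91 FPKM in knockout libraries. The groups of each were separated, with changes of 1.25 (SE 0.10), 1.08 (SE 0.12) and 0.74 (SE 0.08). CXCL8, the neutrophil chemokine interleukin 8, was at 27.8, 20.5 and 20.6 FPKM in wild-type and 31.4, 55.9 and 32.6 FPKM in knockout libraries; its increase of 0.74 (SE 0.20) was lost without wild-type replicate 2 (adjusted p = 0.0562) or 3 (0.0561) and with a pseudocount of 0.1 (0.158). Of 12 TNF receptors and ligands 4 rose and 3 fell. TNFSF15, a ligand that co-stimulates T cells and restrains endothelium, rose from 0.384 ± 0.106 to 3.06 ± 0.808 FPKM. Of 9 interleukin receptor genes 3 fell and 0 rose (limma, with 5 lower and 0 higher at an unadjusted p below 0.05), and IL15RA, which presents interleukin 15, fell from 2.27 ± 0.24 to 0.677 ± 0.0403 FPKM.

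Readouts of TGF-beta and BMP signalling split: 5 of 26 rose and 9 fell, with a median of -0.04. ID2, an inhibitor of basic helix-loop-helix factors, stood at 37.4, 30.2 and 31 FPKM in wild-type and 16.7, 13 and 21 FPKM in knockout libraries. ID1, of the same family and likewise a BMP target, stood at 186, 192 and 190.0 FPKM in wild-type and 118, 112 and 128 FPKM in knockout libraries. TGFBI, a matrix protein induced by TGF-beta, stood at 11.1, 7.0 and 7.46 FPKM in wild-type and 17.6, 12.8 and 18.4 FPKM in knockout libraries. The groups were separated for all of these, with changes of -0.94 (SE 0.16), -0.66 (SE 0.08) and 0.86 (SE 0.14). ID2 lies in the low part of chromosome 2. Outside the low stretches 5 rose and 6 of 23 fell.

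Matrix and guidance genes changed both ways. Of 26 matrix genes 9 rose and 6 fell. COL17A1, the transmembrane collagen of hemidesmosomes, fell from 14.8 ± 1.34 to 7.58 ± 0.181 FPKM, and COL27A1, a fibrillar collagen, rose by 0.70. Of 15 fibroblast markers 2 reached a mean of 1 FPKM. RGS5, a regulator of G protein signalling also known from pericytes, fell from 41 ± 2.62 to 21.4 ± 2.12 FPKM. COL1A2, a chain of collagen I that is typical of fibroblasts, was at 115, 113 and 114 FPKM in wild-type and 150.1, 147 and 154 FPKM in knockout libraries; the groups did not overlap, but the change of 0.40 did not pass (SE 0.30, adjusted p = 0.35), whereas with the MiaPaCa2 libraries alone it passed (adjusted p = 5.7e-04). Of 33 matrix proteases and inhibitors 11 rose and 5 fell, with the 11 down to 6 without wild-type replicate 3. MMP14, a membrane-bound collagenase, rose from 5.83 ± 0.168 to 9.88 ± 2.17 FPKM, while SERPINE2, a secreted inhibitor of thrombin and other serine proteases, fell from 3.18 ± 0.421 to 1.27 ± 0.49 FPKM. Of 27 semaphorins, plexins and ephrins, which guide axons and vessels, 10 rose and 8 fell. EFNB2, ephrin-B2, rose from 2.29 ± 0.333 to 6.13 ± 0.531 FPKM, NRP1, a co-receptor for semaphorins and VEGF, from 0.731 ± 0.259 to 2.06 ± 0.0393 FPKM, and SEMA6B, a semaphorin, fell from 56.4 ± 6.48 to 31.3 ± 2.11 FPKM. Among epithelial junction genes 4 of 21 rose and 4 fell, and CLDN1, a claudin, rose by 0.78. The 4 junction genes that rose became 1 without wild-type replicate 2.

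Families of transcription regulators differed in how many members were called. Of 335 zinc finger genes named ZNF, 51 rose (15.2%) and 19 fell (5.67%), the latter 9 without wild-type replicate 3, and 1 of them changed by more than 1. This was ZNF488, a transcriptional repressor known from oligodendrocytes, at 5.11, 4.76 and 4.57 FPKM in wild-type and 1.05, 1.21 and 1.19 FPKM in knockout libraries. All ZNF488 values of the knockout were under the lowest wild-type value, with a change of -1.44 (SE 0.06, adjusted p = 1.3e-08). Of 13 HOX genes, which set position along the body axis, 7 rose and 1 fell, led by HOXC8 (0.51). Among 31 other homeobox genes 4 rose and 9 fell, the 9 down to 5 without knockout replicate 1, wild-type replicate 1 or wild-type replicate 2. MEIS3, a HOX cofactor, stood at 1.81, 2.05 and 1.94 FPKM in wild-type and 6.02, 5.46 and 5.8 FPKM in knockout libraries. LHX1, a LIM homeobox factor of kidney and head development, stood at 2.51, 3.1 and 3.12 FPKM in wild-type and 0.735, 0.909 and 0.756 FPKM in knockout libraries. These 2 were the largest of the homeobox changes and had no overlap between groups. Of 7 SOX factors, which steer cell fate, 4 fell and 0 rose (median -0.26, limma, with 4 lower and 0 higher at an unadjusted p below 0.05). Of 14 FOX factors 4 rose and 3 fell. Of 13 KLF and SP factors 2 rose and 3 fell, and without wild-type replicate 3 these were 1 and 1. Of 59 genes of chromatin modifiers 15 rose and 14 fell, and HDAC9, a histone deacetylase, rose from 7.42 ± 0.697 to 14.3 ± 0.726 FPKM. BTG1, an antiproliferative partner of mRNA deadenylases, rose from 11.5 ± 1.12 to 27.5 ± 2.15 FPKM.

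Transporters and noncoding RNAs completed the families. Of 169 solute carriers 43 rose (25.4%) and 23 fell (13.6%), the 23 down to 15 without wild-type replicate 2, with SLC2A3 and SLC16A3 at the extremes. Of 23 ABC transporters 9 rose and 7 fell, the 7 down to 4 without wild-type replicate 3, and ABCA1, which exports cholesterol, rose from 0.81 ± 0.0613 to 2.32 ± 0.192 FPKM. Of 15 tetraspanins 6 rose and 3 fell, with CD82 highest and TSPAN15, which escorts the protease ADAM10, lowest (-0.89). Of 87 RNAs named LINC 19 rose and 8 fell (5 without knockout replicate 1 or wild-type replicate 2), and of 301 antisense-named RNAs 44 rose (14.6%) and 36 fell (12%), both below the shares of all genes.

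The changes were not even over the chromosomes. In the first 85 Mb of chromosome 2, where ASAP2 itself lies, 212 of 282 genes fell (75.2%) and 5 rose, and the median was -0.35. The rest of chromosome 2 had a median of -0.10 over 458 genes, with 142 lower and 56 higher. A second low stretch was found at the end of chromosome 14, from 65 Mb on, where 98 of 183 genes fell (53.6%) and 9 rose, with a median of -0.22. The first part of chromosome 14 had a median of 0.02 over 192 genes. Genes outside both stretches had a median of 0.02, with 2158 higher and 1756 lower of 10917. The borders were chosen after the values were seen, stretches within a chromosome were examined only for chromosomes 2 and 14, and DNA copy number was not measured. The medians of the stretches were -0.37 and -0.23 after a correction for GC content and gene length. In Panc1 the same genes had medians of -0.12 on chromosome 2 and 0.01 on chromosome 14, beside -0.11 for genes outside both stretches. The genes of chromosome 18 had the highest median, 0.12, with 52 of 161 higher. Chromosome 1 also leaned low, with 318 of 1178 genes lower (27.0%), 153 higher and a median of -0.05.

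The 5 largest decreases on chromosome 2 by the rule all lay in its first 85 Mb. RRM2 and ID2 are described above. CRIM1, a membrane regulator of BMP ligands, stood at 17.8, 19.8 and 19.7 FPKM in wild-type and 11, 8.85 and 10.8 FPKM in knockout libraries. PRADC1, a secreted protease-associated protein, fell from 13.5 ± 1.66 to 6.92 ± 0.768 FPKM, and SFXN5, a mitochondrial carrier, fell by 0.84, to 4.38 ± 0.389 FPKM from 8.61 ± 0.773. The changes of CRIM1 (-0.85), PRADC1 (-0.88) and SFXN5 were larger in size than the median of the stretch, which follows from picking the largest decreases.

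**Figure D4:**
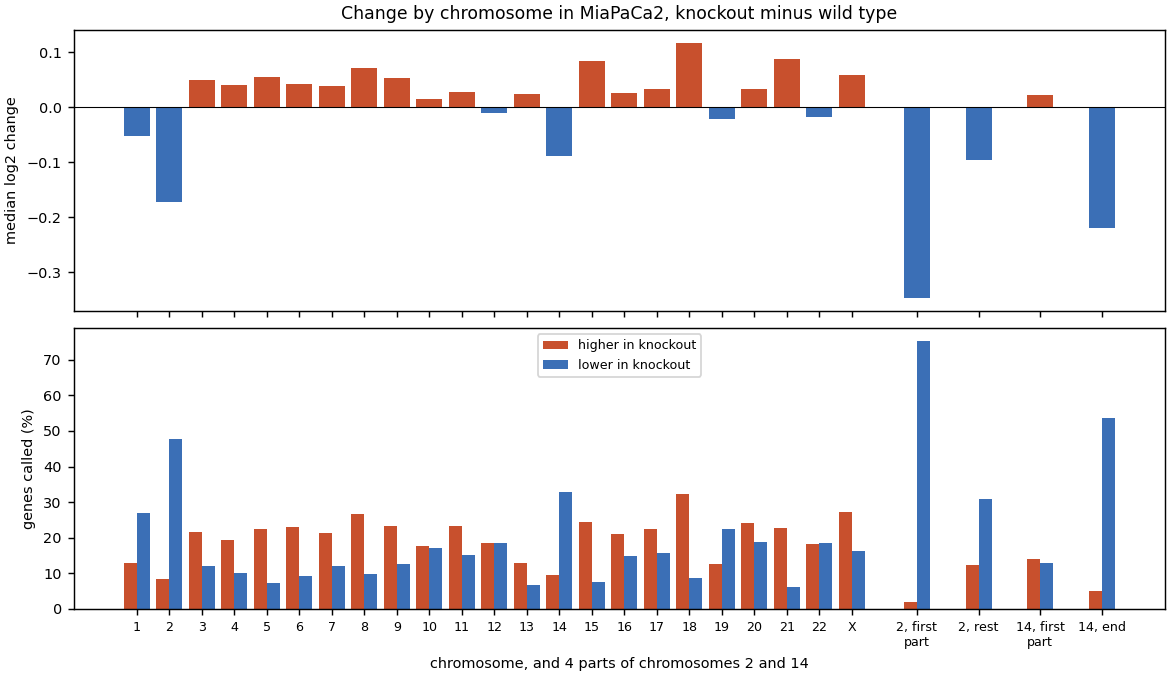
Median log2 change (top) and percent of genes called higher (red) or lower (blue, bottom) for each chromosome in MiaPaCa2 knockout against wild type, with chromosomes 2 and 14 also split into 2 parts. The first part of chromosome 2 (median -0.35, 75.2% lower) and the end of chromosome 14 (-0.22, 53.6% lower) are the lowest bars. Chromosome 2 as a whole is next (-0.17, 47.8% lower).

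The knockout effect in MiaPaCa2 was then compared with that in Panc1, in which wild-type and knockout libraries are separate from those of MiaPaCa2. The change differed between the lines for 6878 of the 11981 genes (57.4%, limma interaction contrast, adjusted p below 0.05). Only 1446 genes (12.1%) were called in the same direction in both lines, and 1297 (10.8%) were called in opposite directions with a difference that passed. Of the 397 genes singled out by the naming rule, the change of 288 differed between the lines.

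Among the largest MiaPaCa2 increases, the log2 changes in Panc1 were -0.02 for PRUNE2, -0.22 for PCDH1 and -0.03 for PRND, none of which passed. For STS it was -1.13 (adjusted p = 3.9e-06). STS thus rose in one line and fell in the other, with a difference of 3.19 (adjusted p = 3.3e-08). LAPTM5, NEDD4L, PHLDA3 and CD82 rose in both lines, by 1.49, 1.05, 0.39 and 1.06 in Panc1, each less than in MiaPaCa2 by a difference that passed. They were picked for large changes in MiaPaCa2, so smaller ones in Panc1 are favoured by the choice. Among the decreases, FABP5, TMEM173 and KRT19 fell in Panc1 as well, with changes of -0.69, -0.60 and -1.09. HES4 rose there by 0.90, and the difference was -2.21 (adjusted p = 7.9e-09). The Panc1 change of ECSCR was 0.10 and did not pass.

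The gene lists were set side by side by their medians, beside all-gene medians of -0.11 in Panc1 and 0.02 in MiaPaCa2. Intermediate filaments had a median of 0.02 in Panc1 against -0.47, actin and contractile genes 0.10 against -0.09, and V-ATPase genes -0.22 against 0.17. Mitosis genes were lower in both, with a median of -0.61 in Panc1 against -0.22. The change of 49 of the 72 mitosis genes differed between the lines (68.1%, against 57.4% of all genes), though for KIF4A, BUB1 and CENPA the difference did not pass (adjusted p = 0.456, 0.976 and 0.534). Amino acid and ATF4 genes were higher in both, with 0.89 in Panc1 against 0.26, and the change of CHAC1 was smaller in MiaPaCa2 (difference -1.67, adjusted p = 4.2e-07). CSF1 rose in MiaPaCa2 and fell by 1.14 in Panc1 (difference 2.23, adjusted p = 7.7e-07). The list medians were not tested against each other.

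**Figure D5:**
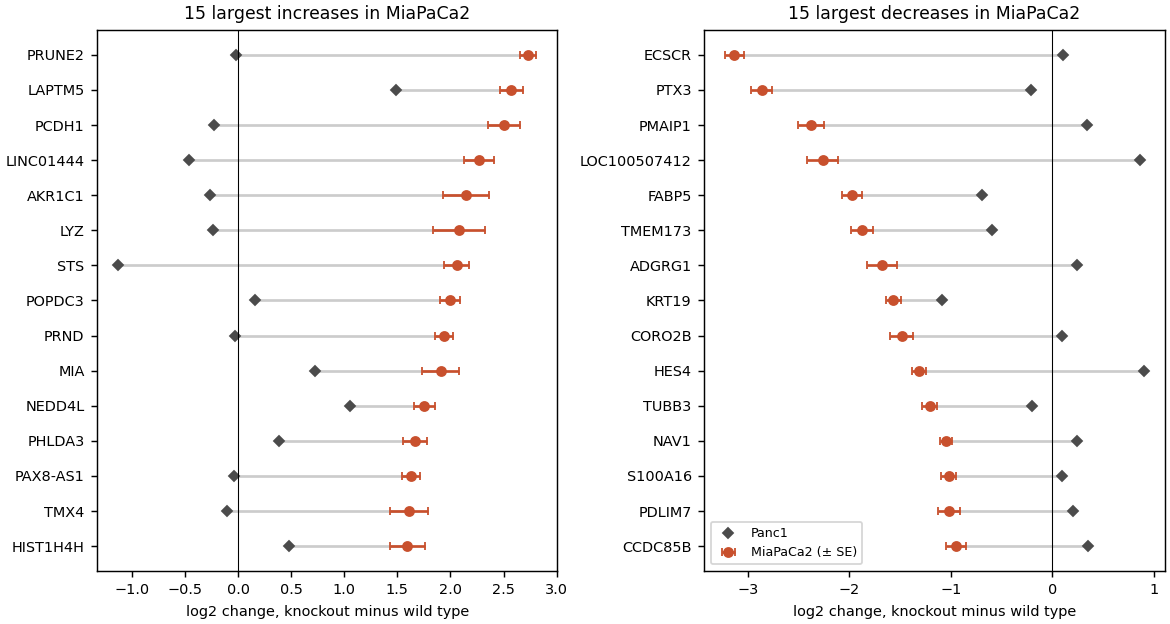
Log2 change (knockout minus wild type) in MiaPaCa2 (red circles with the SE of the fit) and in Panc1 (grey diamonds) for the 15 largest increases and 15 largest decreases in MiaPaCa2 outside the interferon list. The genes were picked by their MiaPaCa2 change alone, which favours smaller values in Panc1. The Panc1 values of PRUNE2, PRND and ECSCR lie near 0, LAPTM5 and NEDD4L rose in both lines, and STS and HES4 are among the genes on opposite sides of 0.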

How the data were processed

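Total RNA in 12 libraries (4 groups of 3) was sequenced on a BGISEQ-500, per the labels' protocols. Per the submitters' processing notes, reads were trimmed and filtered for quality and complexity, the genome was hg19, and TopHat2 2.0.14 and STAR 2.5.2a were used. The values deposited by the authors are FPKM per gene symbol, without counts; read number and strand use are not stated by the labels. A gene missing from a library's table was taken as 0, which concerned 4 of the 11981 members, 1 of them called.

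The log2 of FPKM plus a pseudocount of 1 was fitted with limma 3.58.1 (R 4.3.3) as 4 group means over all 12 libraries, with 8 residual degrees of freedom, an intensity trend and two-sided tests. Changes are on this scale, which understates those of low genes. P-values were adjusted (Benjamini-Hochberg) over 13340 genes that averaged 1 FPKM or more in either line, and the call was an adjusted p below 0.05. SDs are over 3 libraries. On simulated data the procedure was tested first.

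The members, 50 hand-written lists and 40 families by symbol were chosen with earlier results of these data known. By the naming rule, the text names ASAP2, markers, and the 15 largest called changes in each direction outside the interferon list. These changes had no overlap of groups and 5 FPKM or more in the higher group. By the same limits in MiaPaCa2, it names the 8 genes differing most between the lines and 5 decreases on chromosome 2. It also names up to 5 called members per list, with no overlap and 1 FPKM or more in the higher group. VEPH1, MKI67, ATF4, TRIB3, DDIT3, SQSTM1, RPS7, ASAP1 and ARF6 were added after their values were seen. AKR1C2, AKR1C3, MC1R and ISG15 are also named outside the rule, as relatives or neighbours of named genes. Some named genes and lists are not reported here. Positions come from GENCODE 44 on GRCh37, the assembly of hg19, for 11382 members (95.0%). Promoters come from RefSeq (GRCh38.p14) for 22114 of 27305 genes, those with 1 listed start. The alternatives were other scalings, pseudocounts and filters, a GC and length correction, a replicate block, array weights, and leaving out each library.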

Additional observations from a re-analysis of the deposited data

Results flagged for a closer look

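The change between knockout and wild type differed between MiaPaCa2 and Panc1 by the test of the difference itself (limma) for 6878 genes. It did so for 288 of the genes singled out by the naming rule, which picks most of them by their MiaPaCa2 change. Differences, MiaPaCa2 minus Panc1, were ranked only among genes outside the interferon list that were called in MiaPaCa2. These also had no overlap there and 5 FPKM or more in the higher MiaPaCa2 group. Genes that changed mainly in Panc1 were thus left out. The largest in size were STS (3.19), PRUNE2 (2.75), PCDH1 (2.73) and LINC01444 (2.73) among the increases. Among the decreases they were ECSCR (-3.23), LOC100507412 (-3.12), PMAIP1 (-2.72) and PTX3 (-2.65).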

How the results depend on the processing

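The numbers of genes higher (2260) and lower (2108) ranged over 1670 to 2177 and 1612 to 2040 when 1 MiaPaCa2 library was left out, and those changed at least 2-fold (51 and 47) over 49 to 64 and 48 to 53. The genes differing from Panc1 (6878) ranged over 6287 to 6917 in the same runs. Other settings moved these counts further. With array weights 3271 genes were higher, 2785 were lower and 8125 differed from Panc1. After the GC and length correction 2249 were higher, 2342 were lower and 5851 differed from Panc1. With the MiaPaCa2 libraries fitted alone, 1708 genes were higher and 1667 lower, with 51 and 47 at least 2-fold. A pseudocount of 0.1 gave 104 and 75 genes changed at least 2-fold, and a filter of 5 FPKM, which tests fewer genes, gave 30 and 29. None of the named genes changed direction under any alternative run. For genes named for having no overlap between the groups, leaving out 1 library could not have reversed the direction. Between 0 and 27 of the 397 lost their call per alternative, 27 without wild-type replicate 2 and 25 without wild-type replicate 3. ASAP2 was called without knockout replicate 2 (adjusted p = 0.0315) and with array weights (0.0153) and under no other alternative. Libraries with the same number did not deviate together (correlations of -0.127, -0.165 and -0.002), so the numbers do not pair them. Between wild-type and knockout libraries of different numbers the correlations ran from -0.19 to 0.25, and no block was fitted for such matches. With the replicate block by number 1942 genes were higher, 1874 lower, 51 and 47 of them at least 2-fold, 6485 differed from Panc1, and 6 named genes lost their call. Without counts, the depth behind low FPKM values is unknown.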
